A study of Mus musculus with 12 samples.

Results

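Activated fibroblast matrix genes were followed in the infrarenal abdominal aorta of mice that kept or lost CCN2 in smooth muscle cells (SMCs). The 10 genes are Fn1, Sparc, Postn, Tnc, Cthrc1, Gxylt2, Fap, Thy1, Vim and S100a4. They are 10 of the 55092 features in the deposited table, and each matched 1 row by its mouse symbol. The genes were chosen by name with the FPKM of these same libraries in view, so their levels and fold changes are given as a description, without p-values.

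RNA-Seq was performed on 12 male mice, 1 library per mouse, in 4 groups of n = 3. The groups were CCN2fl/fl on saline (CFS), CCN2fl/fl on angiotensin II, Ang II (CFA), CCN2SMCΔ on saline (CSS) and CCN2SMCΔ on Ang II (CSA). CCN2SMCΔ mice carry the floxed Ccn2 alleles together with Myh11-Cre-ERT2, a tamoxifen-inducible recombinase driven by the promoter of smooth muscle myosin heavy chain, so cells that never express Myh11 keep Ccn2. The control mice carried the floxed alleles without Cre. By the study's methods, mice received 5 doses of tamoxifen at 8 weeks of age, waited 2 weeks and then carried an osmotic pump for 7 days, with Ang II at 500 ng/kg/min in the CFA and CSA groups. By the study's results, most CCN2SMCΔ mice had infrarenal aneurysms after 7 days of Ang II. Few CCN2fl/fl mice had aneurysms, and those were thoracic or suprarenal. The labels do not say which of the sequenced aortas held one. The part of aneurysm in the CSA levels was not tested and cannot be told apart from that of genotype. The labels give separate mice but no litter or processing day, so the spread between libraries is that between mice of unknown relation.

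When the vessel wall is injured, adventitial fibroblasts and dedifferentiating SMCs lay down a provisional matrix. Fibronectin, periostin, tenascin-C and SPARC are secreted components of it, and CTHRC1, FAP and THY1 are used to mark activated fibroblasts. Ang II is a widely used stimulus for this remodelling in the mouse aorta, and CCN2 (also called CTGF) is itself a matricellular protein induced by TGF-β. None of these genes belongs to 1 cell type alone: Thy1 is also a surface protein of mouse T cells and neurons, and Vim and S100a4 are also expressed by leukocytes and endothelial cells.

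The genes did not move as 1 block. In CSA aortas Cthrc1, Thy1 and Fap were at their highest level of the 4 groups, while Fn1, Tnc, Vim and Gxylt2 were at their lowest. In CCN2fl/fl mice, Sparc, Postn, Gxylt2 and Cthrc1 were higher in every Ang II than in every saline library, and of these only Cthrc1 was past the limits for a call given below. In CCN2SMCΔ mice, Fn1, Vim, Tnc, Postn and Gxylt2 were lower in every Ang II than in every saline library, and of these only Fn1 was past them. The plot of the FPKM of each gene in the 12 libraries shows these patterns side by side.

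**Figure D1:**
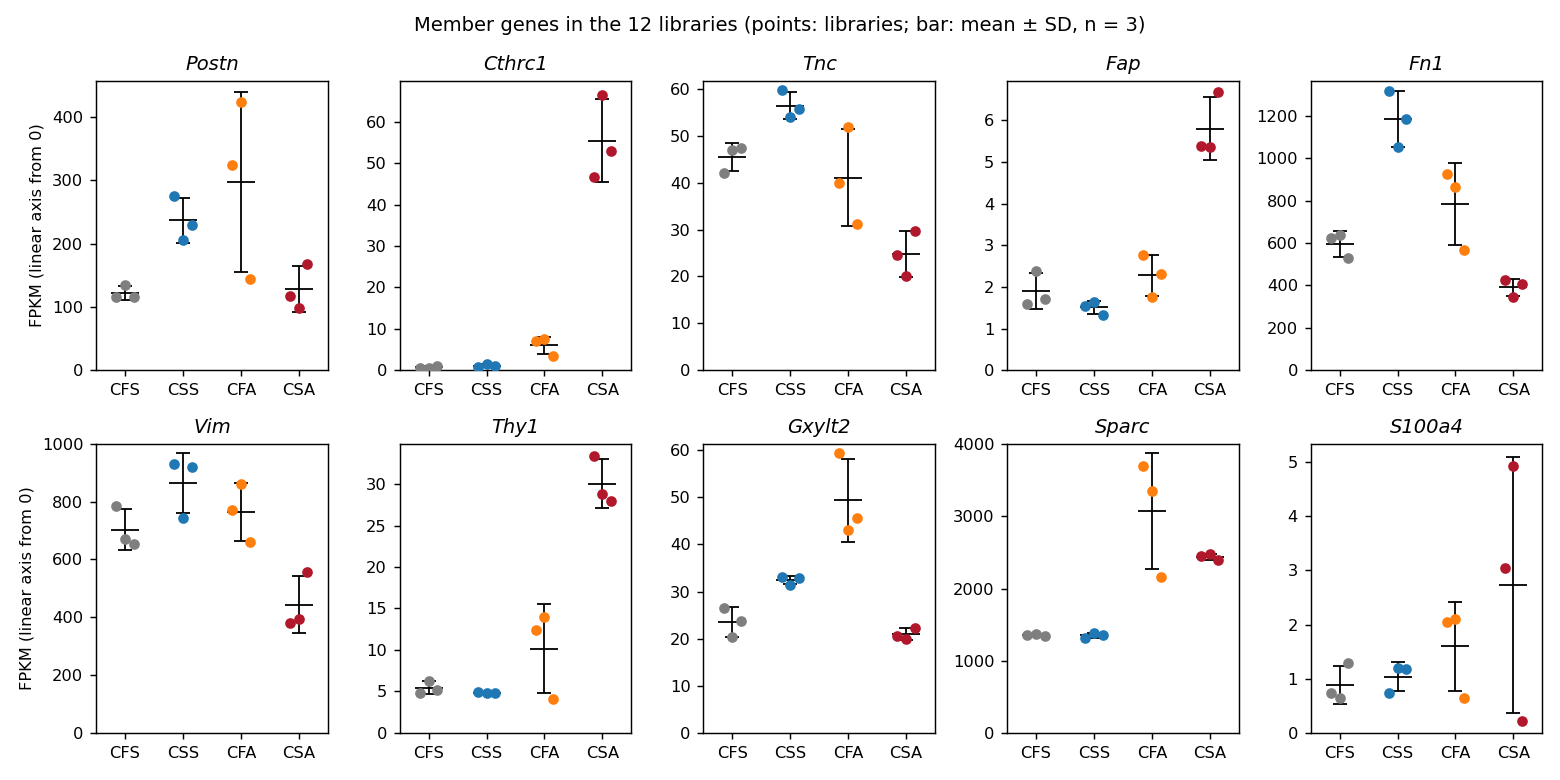
FPKM of each gene (linear axes from 0) in the 4 groups, with points for libraries and bars for mean ± SD (n = 3). All 3 CSA libraries lie above every other library for Cthrc1, Thy1 and Fap, and below every other library for Fn1, Tnc and Vim, while for Postn and Gxylt2 the highest group mean is that of CFA.

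FPKM are fragments scaled by transcript length and by a factor for each library, so levels can be compared roughly between genes. The comparison is less sure for a gene whose exonic bases overlap another gene. The fragments recovered from these values summed to 14558580 to 23107807 per library. CSA 03 stood apart, with the lowest of these sums and 36209 features at 0, against 30331 to 33900 in the other libraries. Without it the calls among the 10 genes were as with it in each comparison, except that S100a4 was also called higher in CSA against CSS (1.83). Fold changes were fitted with limma on log2(FPKM + 0.1) and a group mean for each of the 4 groups, and calls needed an adjusted p under 0.05 together with a log2 fold change beyond 1.5 in size. All 10 genes passed the filter of 1 FPKM in at least 3 libraries, which 14676 genes passed. Cthrc1 passed it in 8 libraries, among them all CFA and CSA libraries, and S100a4 in 7, whereas the other 8 genes were above 1 FPKM in all 12.

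RefSeq promoter sequences (GRCm38.p6) matched 6 of the 10 genes (Vim, Postn, S100a4, Tnc, Gxylt2 and Sparc), and none was matched for Cthrc1, Fap, Fn1 or Thy1. The 250 bases before the start are shown for Postn, Gxylt2 and Sparc, 3 genes whose CFA libraries all lay above the CFS libraries. The start is that of RefSeq, and for Sparc, Vim and 1 of the 2 Tnc starts it lies inside the gene as annotated by GENCODE, downstream of the start in the positions given below. Capitals mark matches, on either strand, to 6 short motifs, which were the AP-1 site TGACTCA, the TEAD site GGAATG, the TATA box TATAAA, the box named CCAAT, the Sp1 site GGGCGG and the CArG box of SRF. No match in the printed windows overlaps another.
Postn, chr3:54360857-54361106, plus strand: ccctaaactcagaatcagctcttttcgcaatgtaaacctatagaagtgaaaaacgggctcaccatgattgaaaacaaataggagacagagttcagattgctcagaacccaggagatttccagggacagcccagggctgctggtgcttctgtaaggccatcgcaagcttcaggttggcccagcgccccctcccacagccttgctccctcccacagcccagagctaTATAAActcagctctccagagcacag
Gxylt2, chr6:100704484-100704733, plus strand: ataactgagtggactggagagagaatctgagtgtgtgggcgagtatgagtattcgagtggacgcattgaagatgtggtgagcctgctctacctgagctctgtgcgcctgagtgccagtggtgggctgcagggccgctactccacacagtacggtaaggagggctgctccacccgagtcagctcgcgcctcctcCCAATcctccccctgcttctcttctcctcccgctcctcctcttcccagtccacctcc
Sparc, chr11:55420081-55420330, minus strand: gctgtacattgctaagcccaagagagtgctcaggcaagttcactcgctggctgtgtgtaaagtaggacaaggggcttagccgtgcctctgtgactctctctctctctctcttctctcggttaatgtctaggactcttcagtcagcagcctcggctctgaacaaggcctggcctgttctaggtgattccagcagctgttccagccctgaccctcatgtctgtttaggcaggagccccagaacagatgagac
In the printed Postn window only a TATA box letter match was found, beginning 26 bases before the start. Postn has a second RefSeq start upstream, whose window (not printed) held none of the 6 motifs. In the other genes, TATAAA was also present in the windows of S100a4 (31 bases before), Vim (32 bases before) and Tnc (126 or 205 bases before, for its 2 starts). It occurs in 12.4% of the 32851 promoter windows of this length. A single CCAAT, 57 bases before the start, was the match in Gxylt2. The Vim window also held CCAAT, 196 and 94 bases before the start. CCAAT occurs in 33.8% of all windows. No letters of the 6 motifs were in the Sparc window. None of the windows of the 6 genes held the AP-1 site, the TEAD site or a CArG box, which are in 4.46%, 12.6% and 1.47% of all windows. The Sp1 letters were found only in the Tnc windows, against 32.7% of all. These are letter matches and not binding sites.

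Fn1 encodes fibronectin, the scaffold on which cells assemble other matrix proteins. It lies on chromosome 1 (71585520 to 71653200, minus strand, GRCm38, as for the positions below). Its FPKM was 623, 640 and 527 in CFS, 1315, 1051 and 1185 in CSS, 924, 865 and 565 in CFA, and 424, 346 and 406 in CSA. Every CSS library lay above every CFS and CFA library, and every CSA library below all others, so that the order of the groups was CSS, CFA, CFS and CSA, with CFA and CFS overlapping. Group means were 597 ± 60.8 (SD, n = 3) in CFS and 1184 ± 132 in CSS, and 785 ± 193 in CFA and 392 ± 40.8 in CSA. The log2 fold change was 0.99 ± 0.19 (SE) for CSS against CFS and -0.97 ± 0.19 for CSA against CFA. Ang II went with a log2 fold change of 0.37 ± 0.19 in CCN2fl/fl mice and -1.60 ± 0.19 in CCN2SMCΔ mice.

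Sparc encodes osteonectin, a collagen-binding matricellular protein. The gene (chromosome 11, 55394500 to 55423183, minus strand) was the most abundant of the 10 in every group. FPKM was 1353, 1375 and 1342 in CFS, 1315, 1384 and 1355 in CSS, 3705, 3349 and 2164 in CFA and 2448, 2478 and 2396 in CSA. Both saline groups overlapped almost completely and every Ang II library lay above them. Its mean was 2.27 times higher in CFA than in CFS and 1.81 times higher in CSA than in CSS, with log2 fold changes of 1.14 ± 0.18 and 0.85 ± 0.18. CSA and CFA overlapped, with a log2 fold change of -0.30 ± 0.18 and a 95% interval of -0.68 to 0.09. In saline, the interval for CSS against CFS was -0.39 to 0.38. Sparc was thus the gene of this set whose Ang II response had the same sign in both genotypes with groups that did not overlap in either, together with Cthrc1.

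Periostin, encoded by Postn (chromosome 3, 54361109 to 54391037, plus strand), binds fibronectin, tenascin-C and collagen and is a marker of activated fibroblasts. Its level was 115, 135 and 116 FPKM in CFS, 275, 206 and 229 in CSS, 325, 424 and 144 in CFA and 118, 98.7 and 168 in CSA. CSS and CFA libraries all exceeded the CFS libraries, and CSA lay below CSS without overlap but overlapped CFA through 1 low CFA library (144). The log2 fold change with Ang II was 1.15 ± 0.34 in CCN2fl/fl mice and -0.91 ± 0.34 in CCN2SMCΔ mice. CSS against CFS gave 0.95 ± 0.34 and CSA against CFA -1.11 ± 0.34. Without the library CFA 74 the last value was -1.57, which passed both limits.

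Tenascin-C (Tnc, chromosome 4, 63959785 to 64047015, minus strand) is a large glycoprotein of injured matrix that binds integrins such as α9β1. FPKM was 42.0, 47.0 and 47.3 in CFS, 59.7, 53.97 and 55.7 in CSS, 39.9, 51.9 and 31.3 in CFA and 24.7, 20.01 and 29.7 in CSA. All CSA libraries were below all others, and all CSS libraries were above all others. In CCN2fl/fl mice Ang II gave a log2 fold change of -0.18 ± 0.19 (95% interval -0.59 to 0.24). In CCN2SMCΔ mice it was -1.20 ± 0.19, and CSA against CFA was -0.71 ± 0.19.

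Cthrc1 encodes a secreted glycoprotein that joins Wnt, Frizzled and ROR2 at the cell surface. The gene (chromosome 15, 39076932 to 39087121, plus strand) had the widest range of the 10, with 72.02 times between its highest and lowest group mean. It was near 1 FPKM in saline, at 0.61, 0.57 and 1.13 in CFS and 0.78, 1.59 and 0.92 in CSS, which rested on 17 to 47 fragments per library. With Ang II it was 6.94, 7.42 and 3.55 in CFA and 46.8, 66.6 and 53.0 in CSA. Neither Ang II group overlapped its saline group or the other Ang II group. The log2 fold change with Ang II was 2.79 ± 0.34 in CCN2fl/fl mice and 5.58 ± 0.34 in CCN2SMCΔ mice, while CSA against CFA was 3.25 ± 0.34. CSS and CFS overlapped (0.46 ± 0.34).

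Gxylt2 encodes a xylosyltransferase that elongates O-glucose on the EGF repeats of Notch receptors. The gene lies on chromosome 6 (100704734 to 100810913, plus strand). Its FPKM was 26.6, 20.3 and 23.7 in CFS and 33.1, 31.5 and 32.9 in CSS. With Ang II it was 59.4, 43.1 and 45.7 in CFA and 20.6, 19.9 and 22.4 in CSA. The CFA libraries were the highest of the 12 and the CSS libraries came next, with no overlap between CFA, CSS and the other groups, while CFS and CSA overlapped. Ang II gave 1.06 ± 0.14 on the log2 scale in CCN2fl/fl mice and -0.63 ± 0.14 in CCN2SMCΔ mice. Between genotypes the log2 fold change was 0.47 ± 0.14 in saline and -1.22 ± 0.14 with Ang II.

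Fap encodes a membrane serine protease of activated fibroblasts that is a close relative of Dpp4. It was a low transcript (chromosome 2, 62500943 to 62574075, minus strand), at 1.59, 2.39 and 1.72 FPKM in CFS, 1.55, 1.64 and 1.33 in CSS, 2.76, 1.76 and 2.32 in CFA and 5.38, 5.35 and 6.67 in CSA. CSA stood above the other 3 groups, and CFA and CFS overlapped. The log2 fold change was 1.87 ± 0.21 for CSA against CSS, 1.32 ± 0.21 for CSA against CFA and 0.25 ± 0.21 for CFA against CFS. With a pseudocount of 1 in place of 0.1 the value for CSA against CSS was 1.44, under the fold limit.

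THY1 is a small glycolipid-anchored surface protein that binds integrins. Thy1 (chromosome 9, 44043384 to 44048579, plus strand) had 4.79, 6.32 and 5.19 FPKM in CFS, 4.89, 4.79 and 4.86 in CSS, 12.5, 14.0 and 4.06 in CFA and 33.4, 28.9 and 28.0 in CSA. CSA was above all other libraries, and CFA was split, with CFA 74 below every saline library. Log2 fold changes were 2.60 ± 0.36 for CSA against CSS, 1.74 ± 0.36 for CSA against CFA and 0.72 ± 0.36 for CFA against CFS. Leaving out CFA 74 moved the last 2 to 1.18 and 1.27, and Thy1 was then not called between CSA and CFA.

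Vimentin, the intermediate filament protein of mesenchymal cells, was the least variable between groups. Vim (chromosome 2, 13573927 to 13582826, plus strand) was at 785, 672 and 652 FPKM in CFS, 929, 743 and 920 in CSS, 772, 862 and 662 in CFA and 380, 393 and 557 in CSA. CSA lay below all other libraries and the other 3 groups overlapped each other. The log2 fold change was -0.98 ± 0.18 for CSA against CSS, -0.80 ± 0.18 for CSA against CFA and 0.12 ± 0.18 for CFA against CFS.

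S100a4, encoding the calcium-binding protein FSP1, was measured too thinly for a comparison. The gene (chromosome 3, 90603771 to 90606045, plus strand) had 2 to 61 fragments per library, and 51.7% of its exonic bases overlap Gm42674, which was listed at 0 in all 12 libraries. FPKM was 0.74, 0.64 and 1.29 in CFS, 0.74, 1.20 and 1.18 in CSS, 2.04, 2.10 and 0.65 in CFA and 3.04, 4.92 and 0.22 in CSA. All groups overlapped, and CSA held both the highest and the lowest library. CSA against CFA gave 0.18 ± 0.85 (95% interval -1.71 to 2.06), and 1.38 without CSA 03 or -0.59 without CSA 02.

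**Figure D2:**
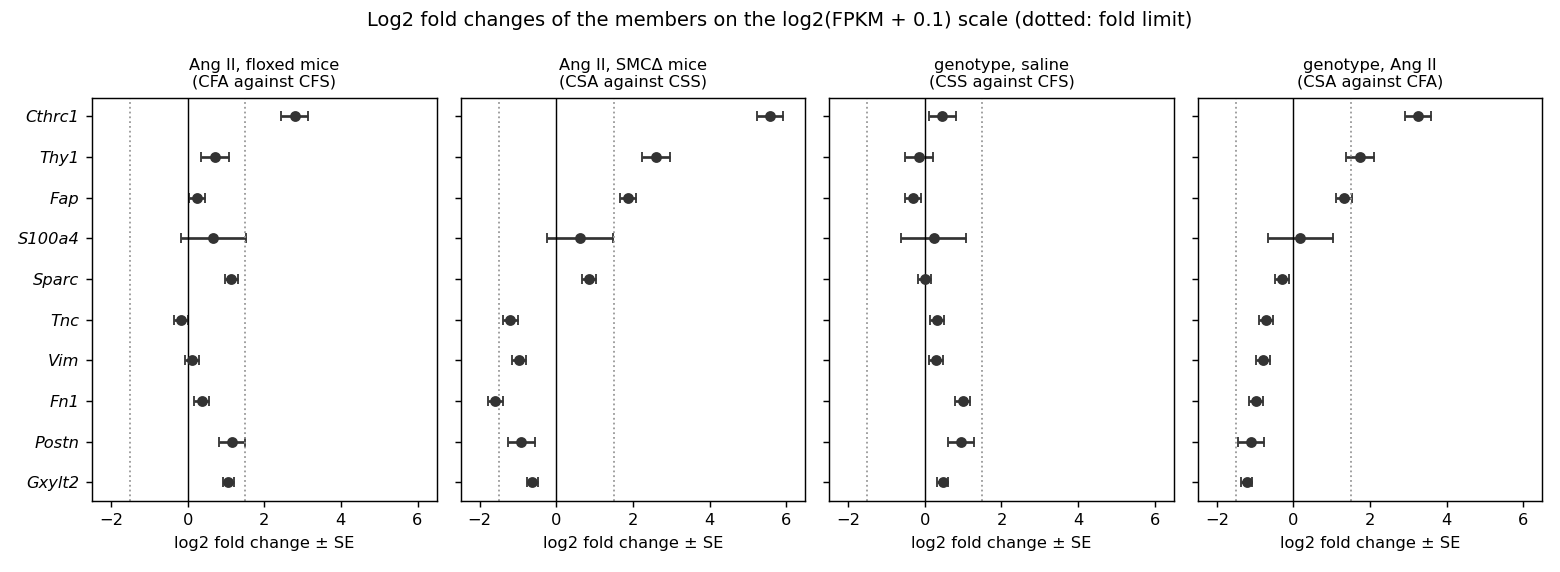
Log2 fold change ± SE on the log2(FPKM + 0.1) scale for each gene in the 4 comparisons, with dotted lines at the fold limit of 1.5. In CSS against CFS all 10 values lie within the limit, and between CSA and CFA they run from -1.22 (Gxylt2) to 3.25 (Cthrc1).

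The response of CCN2fl/fl mice to Ang II was considered apart from the effect of genotype. In CFA against CFS, 1 of the 10 genes was called higher (Cthrc1) and 0 lower, where 0.0204% of all tested genes were called higher and 0.00681% lower. These counts concern a contrast in which the genes were known, and nothing is read from them. Postn, Cthrc1, Gxylt2 and Sparc, 4 of 10, were higher in all CFA than in all CFS libraries and 0 were lower in all, where 9.44% of all tested genes were higher and 10.8% lower without overlap. The median log2 fold change of the 10 was 0.69 and that of all tested genes was -0.0012. The call of Cthrc1 was lost when any 1 of CFS 68, CFS 69, CFS 70, CSS 54, CSS 56, CFA 71, CFA 72, CSA 01 or CSA 02 was left out, when only these groups were fitted or when eBayes was run without trend and robust settings. Its log2 fold change with a library left out was 2.60 to 3.12, with a pseudocount of 1 it was 1.94, and without CFA 74 Postn was called as well (1.61).

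CFA 74 was the lowest CFA library for 8 of the 10 genes and the highest for 0. CFA 72 was the highest for 6 and the lowest for 2. The summed FPKM over 10 SMC contractile markers was 5750 in CFA 74, 7966 in CFA 71 and 8704 in CFA 72. That over 12 macrophage markers was 378 in CFA 74 and 415 in CFA 71, and CFA 72 stood above both at 790. The part of these levels in the spread of CFA was not tested.

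Genotype in saline was compared as CSS against CFS. None of the 10 genes was called, 0 higher and 0 lower, where 0.00681% of all tested genes were called in each direction. By limma 924 of the 14676 tested genes had an unadjusted p under 0.05. Only 1 higher and 2 lower had an adjusted p under 0.05 without the fold limit. Postn, Tnc, Fn1 and Gxylt2, 4 of 10, were higher in all CSS than in all CFS libraries and 0 were lower in all (11.1% of all tested genes were higher and 9.31% lower in this way). Postn and Fn1 had the larger differences, with means 1.94 and 1.98 times higher in CSS. The median over the 10 was 0.30 on the log2 scale and 0.01 over all tested genes.

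In CCN2SMCΔ mice, Ang II was compared as CSA against CSS. Cthrc1, Thy1 and Fap, 3 of 10, were called higher and Fn1, 1 of 10, lower, where 10.9% of all tested genes were called higher and 9.36% lower. Without the fold limit 4 of 10 were past the adjusted p and higher (with Sparc) and 5 lower (Fn1, Vim, Postn, Tnc and Gxylt2), where all tested genes gave 22.3% and 23.9%. The median over the 10 was -0.0045 and that over all tested genes -0.06.

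With Ang II in both genotypes, CSA was compared with CFA. Cthrc1 and Thy1, 2 of 10, were called higher and 0 lower, where the share of all tested genes was 8.95% and 8.27%. Without the fold limit 3 of 10 were higher (with Fap) and 5 lower (Fn1, Vim, Postn, Tnc and Gxylt2), where all tested genes gave 19.5% and 21.2%. The median was -0.50 over the 10 and -0.04 over all tested genes. Leaving out CFA 74 kept the count at 2, with Postn called lower and Thy1 not called. CFA against CFS and CSA against CFA share the CFA libraries, so their values are not independent of each other.

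The interaction of genotype and Ang II, the Ang II response of CCN2SMCΔ mice minus that of CCN2fl/fl mice, uses all 4 groups. It was called higher for Cthrc1 (2.79 ± 0.49), Thy1 (1.89 ± 0.51) and Fap (1.62 ± 0.29), and lower for Postn (-2.06 ± 0.48), Fn1 (-1.96 ± 0.27) and Gxylt2 (-1.69 ± 0.20). These are 3 of 10 in each direction, where 7.89% of all tested genes were called higher and 7.31% lower. Without the fold limit 3 of 10 were higher and 5 lower, the additional ones being Vim (-1.10 ± 0.25) and Tnc (-1.03 ± 0.27), where all tested genes gave 12.8% and 13.7%. Postn and Gxylt2 had responses of opposite sign, since every CFA library exceeded every CFS library and every CSA library was below every CSS library. Sparc gave -0.29 ± 0.25, with a 95% interval of -0.84 to 0.26. Without CFA 74 the interaction of Thy1 was 1.33 and was not called, and Thy1 was also not called with CFS 68 and CSS 55 left out together. That of Fap was not called with a pseudocount of 1 (1.26), with array weights (1.34), without CFS 69 or without CFA 72, with values of 1.45 to 1.77 over the libraries left out.

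**Figure D3:**
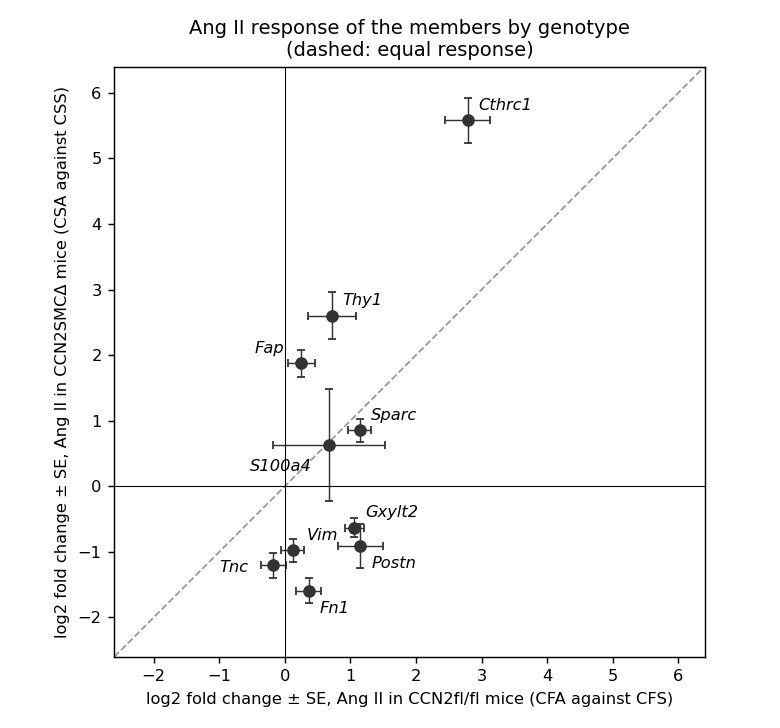
Ang II response of the 10 genes in CCN2fl/fl mice (CFA against CFS, horizontal) and in CCN2SMCΔ mice (CSA against CSS, vertical) as log2 fold change ± SE, with the dashed line at equal response. Cthrc1, Thy1 and Fap lie above the line, Sparc and S100a4 near it, and Postn, Gxylt2, Fn1, Vim and Tnc below it with negative values in CCN2SMCΔ mice.

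Genes with the most similar pattern over the 12 libraries were found by the root mean square difference of centred log2(FPKM + 0.1), as a description. For Cthrc1 they were P4ha3, a subunit of collagen prolyl 4-hydroxylase (0.54), and Ccr2, the chemokine receptor of inflammatory monocytes (0.61), where the median over tested genes was 2.47. For Gxylt2 they were Bgn, the proteoglycan biglycan (0.21), and Bmp4 (0.24), and for Sparc Fstl1, a secreted SPARC family relative (0.27), and Pycr1, an enzyme of proline synthesis (0.27). Postn was nearest to Cd109 (0.30) and Cyb5r3 (0.36), and Fn1 to Gdf10 (0.14) and Stk38l (0.19). Thy1 was nearest to Arl5c (0.27) and Lmnb1 (0.28), Fap to Mdfic (0.19) and Zfp984 (0.20), Tnc to Clasp2 (0.16) and Lamc1 (0.17), and Vim to Uba2 and Exoc6b (both 0.12). S100a4 was nearest to Bok (0.41) and Sox4 (0.45). Among the 10 genes themselves, Tnc and Vim were the closest pair (0.20).

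Other genes of activated fibroblasts and myofibroblasts, among them fibrillar collagens and their crosslinking enzymes, were set beside the 10. Of 30 genes 29 were tested, and in CSA against CFA 9 were called higher and 0 lower (median 0.88 on the log2 scale), where all tested genes gave 8.95% and 8.27%. Without the fold limit 16 were higher and 3 lower, where all tested genes gave 19.5% and 21.2%. The 3 were Aebp1 (-1.22 ± 0.22), Loxl1 (-1.08 ± 0.32) and Inhba (-0.74 ± 0.19), each lower in all CSA than in all CFA libraries. From CSS to CSA 15 rose and 0 fell, where all tested genes gave 10.9% and 9.36%. In CFA against CFS 0 were called, where all tested genes gave 0.0204% higher and 0.00681% lower. Col11a1, a minor fibrillar collagen, was at 0.42 ± 0.14 FPKM in CFA and 11.4 ± 2.98 in CSA (log2 fold change 4.48 ± 0.41). Timp1, an inhibitor of matrix metalloproteinases, rose by 3.47 ± 0.55. CFA 72 alone of the CFA libraries held 110 FPKM of it (29.9 and 19.4 in the others). Runx1, a transcription factor, and Adam12, a metalloprotease of activated fibroblasts, gave 3.40 ± 0.30 and 3.29 ± 0.52. Col11a1, Runx1 and Adam12 were 3 of the 9 called higher, and were also among the 16 and the 15 counted above. They would not have passed the filter without the CSA libraries, so they could be tested only because CSA was high. Col12a1, a fibril-associated collagen, and Sfrp1, a secreted Wnt inhibitor, rose by 3.002 ± 0.24 and 2.56 ± 0.46.

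Receptors and partners of the encoded proteins included integrins, syndecans and Notch receptors. All 20 were tested, and in CSA against CFA 1 rose and 3 fell (median -0.44), where all tested genes gave 8.95% and 8.27%. Without the fold limit 5 were higher and 8 lower, where all tested genes gave 19.5% and 21.2%. Itga8, the α chain of a fibronectin and tenascin receptor of SMCs, fell from 263 ± 20.99 FPKM in CFA to 17.6 ± 2.98 in CSA (log2 fold change -3.90 ± 0.16). Itga9, a tenascin-C receptor chain, fell by 2.66 ± 0.13 on the log2 scale and Itgb3, part of αvβ3, by 1.90 ± 0.26. Ror2, the receptor named above for CTHRC1, rose by 1.65 ± 0.30 from 1.299 ± 0.42 FPKM. It was not called without CFA 71 or with a pseudocount of 1. The count that rose was 0 without CFA 71, 2 without CFA 74 and 3 without CSA 02. The fibronectin-binding chain Itga4 and the TGF-β-activating chain Itgb8 had 1.43 ± 0.23 and 1.44 ± 0.36, under the fold limit.

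Among 14 paralogs of the 10 genes, 11 were tested. In CSA against CFA 2 rose and 5 fell, where all tested genes gave 8.95% and 8.27%. Both that rose, Tnn (tenascin-W) and Dpp4, would not have passed the filter without the CSA libraries. With any 1 of CSA 01, CSA 02 and CSA 03 left out, 10 were tested, without Tnn, and 1 rose. Tnn was at 0.17 ± 0.02 FPKM in CFA and 2.51 ± 1.16 in CSA (log2 fold change 3.18 ± 0.42). In contrast, Tnr (tenascin-R) fell from 1.53 ± 0.53 to 0.06 ± 0.03 FPKM. Dpp4, the relative of Fap, gave 2.43 ± 0.45 from 0.64 ± 0.35 FPKM in CFA. The SPARC relatives Sparcl1 and Smoc1 fell by 2.39 ± 0.23 and 1.77 ± 0.18. The Gxylt2 paralog Gxylt1 had a log2 fold change of 0.74 ± 0.22. Des (desmin), the muscle relative of Vim, fell from 166 ± 23.5 to 20.01 ± 7.60 FPKM.

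**Figure D4:**
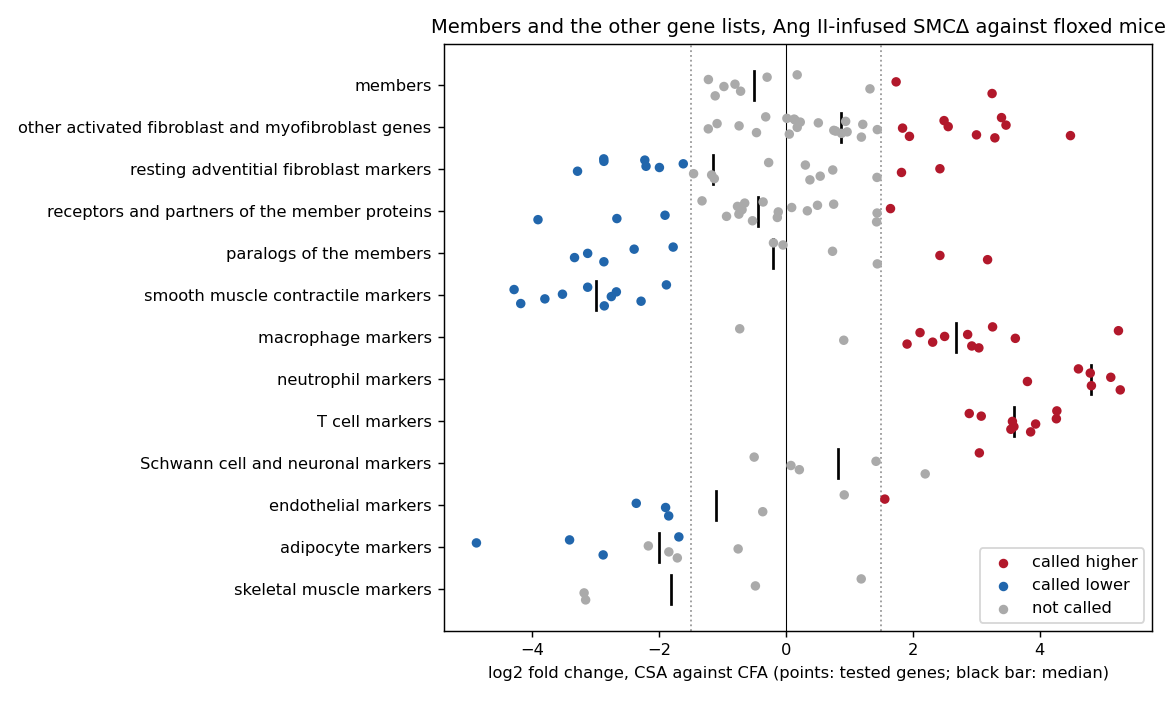
Log2 fold changes of CSA against CFA for the tested genes of each list (points, red and blue where called higher or lower, grey where not) with the list median (black bar) and the fold limit (dotted). The 10 genes lie on both sides of 0, all 10 SMC markers are called lower, and the neutrophil and T cell markers tested are all called higher, 3 and 8 of which would not have passed the filter without the CSA libraries.

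Resting adventitial fibroblast markers were examined because some of the 10 genes (Cthrc1, Fap, Thy1 and Postn) are used to mark activated fibroblasts. Of 18 genes 2 rose and 7 fell in CSA against CFA (median -1.15), where all tested genes gave 8.95% and 8.27%. Without the fold limit 4 were higher and 10 lower, where all tested genes gave 19.5% and 21.2%. In CFA against CFS and CSS against CFS 0 were called, where at most 0.0204% of all tested genes were called in either direction. Clec3b, Gsn and Tnxb fell by 3.28 ± 0.27, 2.87 ± 0.22 and 2.87 ± 0.25 on the log2 scale. Abca8a and Scara5 fell by 2.22 ± 0.20 and 2.20 ± 0.14. The 2 that rose were Ly6a and Dpp4. Ly6a rose by 1.82 ± 0.21 and was above 1 FPKM in all 12 libraries. Dpp4 and Tnxb are in both this list and that of the paralogs. Dpp4 would not have passed the filter without the CSA libraries. Pdgfra, the general fibroblast receptor, was 19.8, 15.8 and 24.6 FPKM in CFA and 24.01, 20.1 and 35.3 in CSA, and its groups overlapped.

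Marker levels of other cell types differed between the groups, and in whole tissue fewer cells of a type and less RNA per cell cannot be told apart. Beside the counts here and in the next paragraph, 8.95% of all tested genes were called higher and 8.27% lower in CSA against CFA. All 10 SMC contractile markers fell in CSA against CFA, and their summed FPKM was 844 to 1003 in CSA, 5750 to 8704 in CFA, 8006 to 9101 in CSS and 8512 to 10618 in CFS. Synpo2, Myh11 and Cnn1 fell by 4.28 ± 0.15, 4.17 ± 0.14 and 3.80 ± 0.26. Of 12 macrophage markers 10 rose and 1, Mertk, was lower in all CSA than in all CFA libraries (-0.73 ± 0.21, under the fold limit). Their sum was 2488 to 2829 in CSA, 378 to 790 in CFA, 336 to 407 in CSS and 312 to 372 in CFS. Fcgr1, Itgam and Cd14 were higher by 5.24 ± 0.48, 3.61 ± 0.39 and 3.26 ± 0.28. Itgam, 1 of the 10, would not have passed the filter without the CSA libraries. Of its exonic bases, 68.7% overlap Gm49368. For the SMC marker Tagln, 67.9% overlap Gm48529 and Pcsk7. Of 8 neutrophil markers 6 were tested and called higher, 3 of which (Cxcr2 and Mmp8 among them) would not have passed the filter without the CSA libraries, and the largest values were those of S100a8 (5.27 ± 0.41), Cxcr2 (5.12 ± 0.52) and S100a9 (4.81 ± 0.55), and their sum was 513 to 565 in CSA and at most 28.0 elsewhere. Of 10 T cell markers 9 were tested and called higher, 8 of which, all but Trbc2, would not have passed the filter without the CSA libraries, and the largest values were those of Trbc2 (4.27 ± 0.77), Cd8b1 (4.26 ± 0.70) and Cd4 (3.93 ± 0.45), and their sum was 35.4 to 46.9 in CSA and at most 4.85 elsewhere. With any 1 of CSA 01, CSA 02 and CSA 03 left out, 1 T cell marker was tested, and it was called. The neutrophil marker Ly6g was listed at 0 in 8 libraries, 2 of them CSA, and the T cell marker Cd3d in 2 libraries, both CFS. The part of these cells in the levels of Thy1, Vim, S100a4 and the other genes was not tested.

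Markers of endothelium and of tissues next to the aorta also varied. Endothelial markers summed to 93.4 to 118 FPKM in CSA, 174 to 392 in CFA, 264 to 380 in CSS and 83.1 to 366 in CFS, and 1 of 6 rose and 3 fell (Vwf, Tek and Pecam1, by 2.36 ± 0.54, 1.89 ± 0.54 and 1.84 ± 0.56). Without CFA 71, CFA 74 or CSA 02 only 1 endothelial marker fell, and without CFA 74 or CSA 03 0 rose. Adipocyte markers were 102 to 158, 184 to 501, 116 to 506 and 387 to 1266 in the same order. Of these 8 markers 4 fell (among them Cidea, Lep and Plin1, by 4.87 ± 0.56, 3.41 ± 0.50 and 2.88 ± 0.76). Schwann cell and neuronal markers were 28.8 to 32.7, 12.9 to 17.4, 9.80 to 26.4 and 12.002 to 31.5, and 1 of 6 tested of 8 rose (Tubb3, 3.05 ± 0.57, and 2 without CSS 55, CFA 72 or CSA 03), with Mbp at 1.42 ± 0.30. Skeletal muscle markers were high in CFS 68 (153) and CSS 55 (244) and at most 5.57 elsewhere, and none of the 4 tested of 6 was called (Ckm, Acta1 and Tnnt3 had -3.18 ± 1.49, -3.15 ± 1.78 and 1.19 ± 1.45). The part of these cells in the levels of the 10 genes was not tested.

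**Figure D5:**
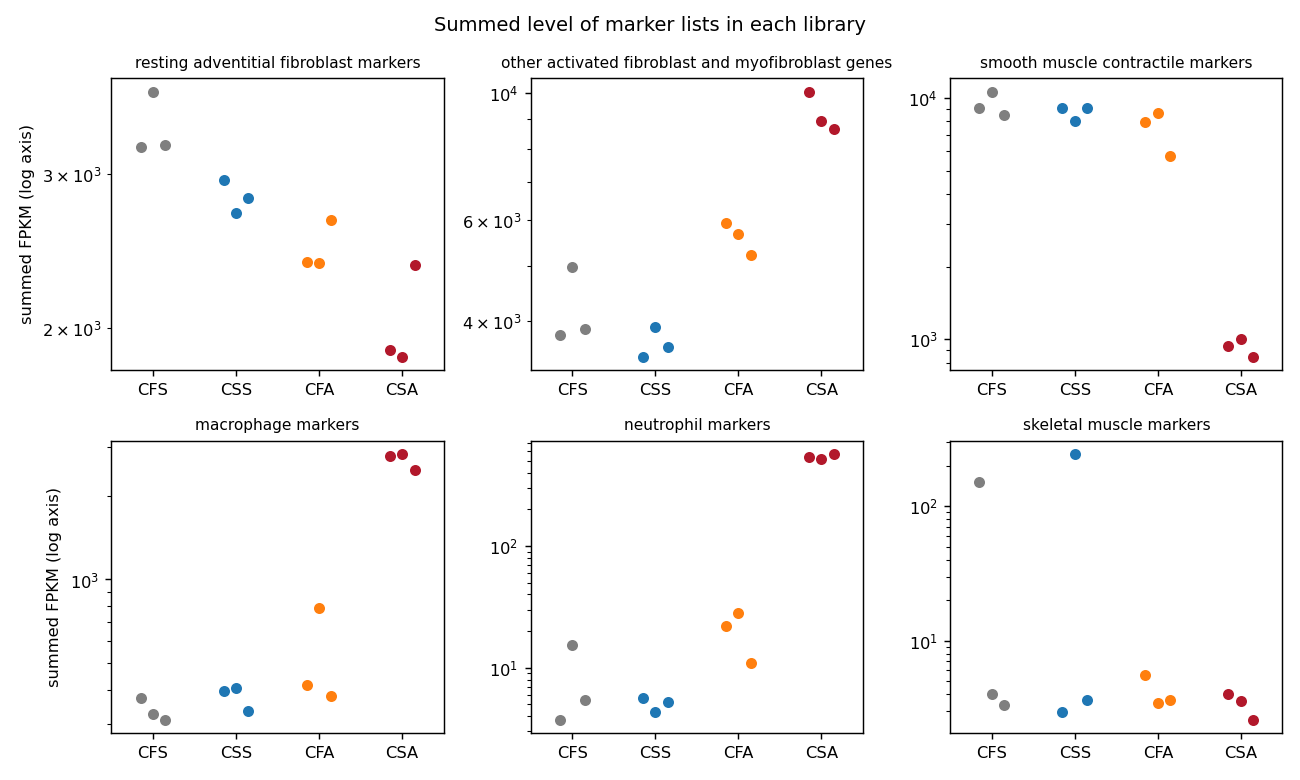
Summed FPKM of 6 lists (log axes) in each library by group. SMC markers are lower and macrophage and neutrophil markers higher in all CSA libraries than in all others, and skeletal muscle markers stand out in 1 CFS and 1 CSS library.

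Ccn2 itself was at 710, 1108 and 480 FPKM in CFS, 436, 640 and 587 in CSS, 1013, 1105 and 564 in CFA and 255, 331 and 399 in CSA. CSA lay below CFA (log2 fold change -1.41 ± 0.34, adjusted p = 0.00622 by limma, under the fold limit), while CSS and CFS overlapped (-0.40 ± 0.34, 95% interval -1.14 to 0.34). Of its exonic bases, 23.2% overlap Gm15270. The level of the targeted gene separated the genotypes with Ang II and did not in saline. All 10 SMC contractile markers also fell in CSA against CFA (median log2 fold change -2.99). The part of lower SMC RNA in the level of Ccn2 was not tested.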

How the data were processed

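Abdominal aortas of 12 mice in 4 groups of 3 were assigned from the sample labels. The authors deposited FPKM, 1 value per gene and mouse, unpooled. HISAT2 2.0.5, StringTie 1.3.3b, featureCounts 1.5.0-p3 and mm10 stand in the submitters' processing notes without role or order. The study's methods name DEG-Seq, which needs counts and was not run here. Strand use in counting is not given in the sources used here, and 0 value columns were left unused. GENCODE M21 (GRCm38) gave symbols, positions and exon lengths. With those lengths, 98.0% to 98.5% of low values (under 100 fragments) lay within 0.05 of a whole number of fragments, and the recovered fragments gave the depth. Median-of-ratios factors of the deposited FPKM were the same in all 12 libraries, so this scaling was already applied.

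Log2(FPKM + 0.1) was fitted with limma 3.58.1 in R 4.3.3 (eBayes with trend and robust) over all libraries, with genes at 1 FPKM in at least 3 libraries and Benjamini-Hochberg adjustment over all 14676 of them. A fold change on this scale understates the change of low genes. The fit was tested on simulated data. Calls needed an adjusted p under 0.05 and a log2 fold change beyond 1.5 in size, the limits of the study. Tables and figures used matplotlib 3.10.9, numpy 2.4.6 and pandas 2.3.3 in Python 3.11.15. The genes and lists were chosen with earlier results of these data known. The text names all 10 genes, the 6 or 3 members of each other list with the largest change between CSA and CFA, the 2 nearest genes by pattern, Ccn2, and paralogs or receptors beside their gene. A gene that this rule selects is not reported here. Pdgfra, Ly6a, Aebp1, Loxl1, Inhba, Mertk and Mmp8 were named after their values were seen. The alternatives were another pseudocount, other filters and scalings, other eBayes settings, array weights, fits of only the groups compared, no fold limit and leaving out each mouse. Leaving out CFS 68 and CSS 55 together was added after seeing the data.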

Additional observations from a re-analysis of the deposited data

Results flagged for a closer look

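For 6 of the 10 genes the difference in Ang II response between CCN2fl/fl and CCN2SMCΔ mice, given by the interaction term on the log2 scale, was past the limits used for calls over all genes. As the genes were chosen with these values known, the count and the values are a description, and 7.89% of all tested genes were called higher and 7.31% lower. The term was positive for Cthrc1 (2.79), Thy1 (1.89) and Fap (1.62) and negative for Fn1 (-1.96), Postn (-2.06) and Gxylt2 (-1.69). For Postn and Gxylt2 every CFA library was above every CFS library and every CSA library below every CSS library. Thy1 was not among the called genes without CFA 74 (1.33), nor with CFS 68 and CSS 55 left out together. Fap was not among them without CFS 69, without CFA 72, with a pseudocount of 1 (1.26) or with array weights (1.34).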

How the results depend on the processing

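In CFA against CFS the count of called genes was 1. It was 0 with eBayes without trend and robust, with only the groups compared and with both libraries rich in skeletal muscle RNA left out, and 2 without the fold limit. With 1 library left out it ran from 0 to 2. Without the fold limit it was 9 in place of 4 for CSA against CSS and 8 in place of 2 for CSA against CFA. For CSS against CFS the count stayed at 0 in every alternative run. The interaction count was 5 or 6 throughout the fits with the fold limit. Median-of-ratios scaling could not change a count, since its factor was the same for all 12 libraries. The count for CSA against CSS ran from 3 to 5 with the fold limit. No fold change called among the 10 genes as reported changed sign in an alternative. S100a4, with few fragments, was not called as reported. For CSA against CSS it was called higher with array weights and without CSA 03 (1.86 and 1.83) and was -0.15 without CSA 02, and for the interaction it changed sign in 10 of 19 alternatives. No value for Fap or S100a4 could be given at a mean FPKM of at least 5. The cause of these changes was not tested, except that without the fold limit smaller changes pass. No paired analysis was possible because the replicate numbers are those of single mice and no number occurs in more than 1 group.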
